A study of Mus musculus with 4 samples.

Results

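The small leucine-rich proteoglycans are secreted proteins of connective tissue, each built around a run of leucine-rich repeats, and most bind collagen. They coat collagen fibrils, set how the fibrils grow and are spaced, and hold growth factors such as TGF-β in the matrix. Cartilage holds several of them beside aggrecan, and they are grouped in classes by sequence. The members described here were the 10 genes Dcn, Bgn and Aspn of class I, Fmod, Lum, Prelp and Kera of class II, Ogn and Epyc of class III, and Chad of class IV, out of 18101 protein-coding genes found in both annotations used. They were taken by name as members of the family, with earlier results of these data known. Their peaks were counted at the start of the gene and over the gene body plus 50 kb on each side.

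Open chromatin was measured by ATAC-Seq, in which the Tn5 transposase inserts adapters into accessible DNA. All 4 libraries were made from primary chondrocytes of mouse rib cartilage, taken from newborn mice with collagenase and used within 2 passages. Cho had 2 replicates, Cho Rep1 and Cho Rep2, with no genotype label. WT had 1 library, and mice homozygous for the loss of E160 and E308 (label E160(delta/delta);E308(delta/delta)) had 1 library, called the deletion library here after its label. E160 and E308 are elements upstream of Sox9, the gene of the main transcription factor of cartilage. They were removed by CRISPR/Cas9 in C57BL/6J embryos, and the study describes WT and deletion animals as littermates. How many animals or which sex went into a library is not given in the sources used here. With 1 library per genotype there was no replicate check, so WT and deletion values compare 2 libraries and carry no test.

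The lists held 76242 peaks in Cho Rep1, 148330 in Cho Rep2, 90971 in WT and 169591 for the deletion. Depth was estimated at 4622 to 20816 tags per Mb of genome. This came from the most common background and the shortest peak of each list, not from a count of reads. Within 2 kb of the E160 site upstream of Sox9 the highest fold enrichment was 11.4, 15.2 and 13.4 in Cho Rep1, Cho Rep2 and WT, and the deletion library had no peak. At the E308 site it was 23.2, 30.0 and 15.4. There the library labelled as the deletion had 1 peak of 3.07 with 4 tags at its summit, 308.736 kb before the Sox9 start where the WT summit lay at 308.787 kb. This weak peak lay within the element described as removed and so goes against the homozygous label at E308, but it was at the floor of the list. Its 4 tags were the fewest of any peak there, where the WT peak had 26. The study reports the double deletion by genomic PCR and describes the E308 peak as not detectable. The label was not tested further, and every direction between WT and the deletion library below rests on it. Of 8 chondrocyte markers found in the annotations, 3 had a promoter peak in Cho Rep1 and 7, all but Comp, in each other library, and Acan lacked one in Cho Rep1 while Sox9 and Col2a1 had one in all 4. Of 6 fibroblast and tendon markers, 5 had one in every library, including Col1a1, Col1a2 and Col3a1. Muscle markers had 0 to 2 of 4, endothelial markers 1 to 2 of 3, blood markers 0 to 1 of 3 and epithelial markers 0 to 1 of 3. Of all genes, 58.6% had a promoter peak in Cho Rep1, 66.9% in Cho Rep2, 62.0% in WT and 67.8% in the deletion library. Several proteoglycan genes are also active in fibroblasts and tendon cells, and the part of such cells in the values below was not tested. In a bulk library, fewer cells with an open site and a less open site in every cell cannot be told apart.

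A peak was placed at a promoter when its summit lay within 1 kb of the gene's start. In WT, 8 of the 10 genes had such a peak, where 62.0% of all genes had one. The deletion library had the same 8 genes, against 67.8% of all genes. Cho Rep2 had 7 of 10 against 66.9%, and Cho Rep1 had 3 of 10 against 58.6%. Dcn, Fmod and Ogn were open in all 4 libraries, Lum, Prelp, Aspn and Chad in 3, and Bgn in WT and the deletion library. Of all genes, 54.6% had a promoter peak in all 4 libraries, 7.8% in 3 and 4.1% in 2. Kera and Epyc had no promoter peak in any library, as did 28.2% of all genes.

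The strength of a peak is given as fold enrichment, the number of tags at the summit over a background with 1 added to both. In Cho Rep2, WT and the deletion library this background was local and varied by site. In Cho Rep1 it was 1.368 at each called member, the value of the whole library. Cho Rep1 fold enrichments are thus not the same measure as the others, and the Cho means below join unlike measures. Levels between libraries move with depth, so each value is set beside its library. The plot of promoter peaks by gene shows Ogn above all other members except in Cho Rep1.

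**Figure D1:**
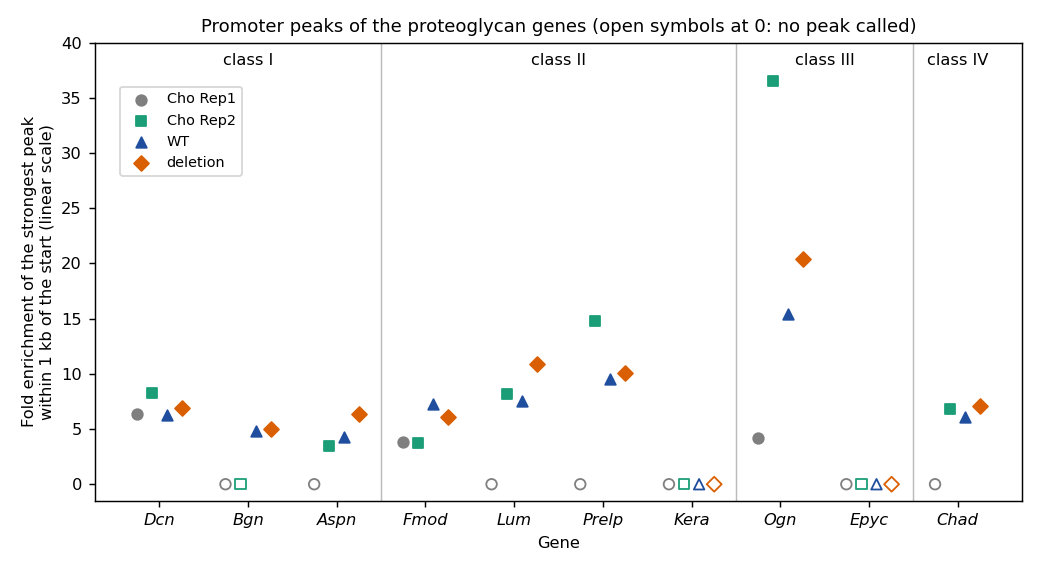
Fold enrichment (linear axis) of the strongest peak within 1 kb of the start of each proteoglycan gene, with genes on the x axis ordered by class and 1 symbol per library. Open symbols at 0 mark genes with no peak called. Ogn reached 36.5 in Cho Rep2, and Kera and Epyc had no peak in any library.

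Among the class I genes, Dcn codes for decorin, which binds collagen fibrils and TGF-β. Its promoter peak had a fold enrichment of 6.33 in Cho Rep1, 8.31 in Cho Rep2, 6.23 in WT and 6.93 for the deletion. These 4 values were close together, while the summit tags over library background were 10.2 in Cho Rep1 and 22.2 to 28.1 in the other libraries. The Cho mean was 7.32 ± 1.395 (SD, n = 2), and the WT and deletion values both lay within that SD. In Cho Rep2 the strongest summit lay 751 bp before the start, with a second one of 7.79 at 120 bp after it. The strongest summits of the other 3 libraries lay between 10 bp before and 17 bp after the start. Matched by distance within 150 bp, the 7.79 of Cho Rep2 belonged to their site. The 8.31 belonged to a separate site, where the deletion library had 6.26 at 845 bp before the start. The 4 values and the Cho mean above thus joined unlike sites. Cho Rep2 distances were from the GRCm38 start and were offset from the others here. The Dcn intron peak, for example, lay at 37.138 kb in Cho Rep2 and 37.033 kb in WT.

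Bgn codes for biglycan, the X-linked relative of decorin that also acts in bone. Its promoter peak was 4.79 in WT and 5.00 for the deletion, with summits 0 and 26 bp before the start. In Cho Rep2 the nearest summit lay 1456 bp into the gene at 2.54, and in Cho Rep1 it lay 3986 bp in at 3.80. The Bgn promoter was thus called in the 2 labelled genotypes and in neither Cho list. In WT its value stood at percentile 2.9 of the 11230 promoters with a peak.

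Aspn codes for asporin, which binds collagen and TGF-β. The peak at its promoter was 3.47 in Cho Rep2, 4.32 in WT and 6.40 for the deletion. It stood at percentile 1.0 of called promoters in Cho Rep2, 1.2 in WT and 11.6 for the deletion. In Cho Rep1 the nearest summit lay 1413 bp into the gene, at 4.65.

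Of class II, Fmod codes for fibromodulin, a keratan sulfate proteoglycan of cartilage and tendon. Its promoter peak was 3.80 and 3.75 in the Cho replicates, a mean of 3.78 ± 0.034 (SD, n = 2), 7.27 in WT and 6.13 for the deletion. Both Cho values lay below the WT and deletion values. The Cho values were close only as ratios, from 8 tags over a background of 1.368 in Cho Rep1 and 55 tags over 13.926 in Cho Rep2. Over library background these tags were 5.85 and 28.1. The summits lay 136 to 204 bp after the start in all 4 libraries.

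Lum codes for lumican, a keratan sulfate proteoglycan of cornea, skin and cartilage. The peak was 8.19 in Cho Rep2, 7.53 in WT and 10.8 for the deletion, with summits 18, 54 and 52 bp before the start. In Cho Rep1 the nearest summit lay 9631 bp before the start and was strong, at 14.8.

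Prelp codes for a proline- and arginine-rich member that binds heparan sulfate and collagen. Its promoter peak was 14.8 in Cho Rep2, 9.55 in WT and 10.1 for the deletion, 114 to 230 bp before the start. After Ogn it was the strongest promoter among the members in Cho Rep2 and WT, and Lum stood above it in the deletion library. No summit lay within 12104 bp of its start in Cho Rep1.

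Of class III, Ogn codes for osteoglycin, also called mimecan, first found in bone and abundant in cornea. Its promoter peak was 4.22 in Cho Rep1, 36.5 in Cho Rep2, 15.5 in WT and 20.4 for the deletion. The Cho replicates differed widely, with a mean of 20.4 ± 22.8 (SD, n = 2). The value stood at percentile 4.3 of called promoters in Cho Rep1 and at 97.9, 70.7 and 95.4 in the other 3 libraries. The summits lay 94 to 172 bp before the start, so the libraries differed in height at nearly the same place.

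Chad, of class IV, codes for chondroadherin, a cartilage protein with no glycosaminoglycan chains that binds chondrocytes through integrins. At its promoter the peak was 6.85 in Cho Rep2, 6.12 in WT and 7.04 for the deletion. All 3 summits lay 434 to 487 bp before the start, farther out than the strongest summits of the other called members except Dcn in Cho Rep2. When the summit had to lie within 300 bp of the start, a limit chosen after the values were seen, Chad lost its peak in all 3 libraries that had one.

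Cho Rep1 stood apart at these genes. The 4 genes it lacked while the other 3 libraries had them were Lum, Prelp, Aspn and Chad. Over the 9880 promoters called in all 4 libraries, the median number of summit tags over library background was 21.2 in Cho Rep1, 79.2 in Cho Rep2, 86.0 in WT and 73.5 for the deletion. At its 3 called members Cho Rep1 had 10.2 for Dcn, 5.85 for Fmod and 6.58 for Ogn. The part of this lower signal in the missing calls was not tested.

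The RefSeq promoter table of build GRCm38.p6, which holds 250 bases before and 50 after each start, had an entry for 8 members, not for Dcn and Lum. The bases before the start are shown for Ogn and Prelp, the most open of these promoters in WT, for Chad, whose summits lay outside them, and for Kera, which had no peak. Capitals mark the motifs searched on both strands: AACAAT or ACAAAG (SOX), TGANTCA (AP-1), TGTGGT (RUNX), GGAATG (TEAD) and TATAAA (the TATA box). Each is written 5′ to 3′ on the strand of its gene.
Ogn, chr13:49607765-49608014, + strand: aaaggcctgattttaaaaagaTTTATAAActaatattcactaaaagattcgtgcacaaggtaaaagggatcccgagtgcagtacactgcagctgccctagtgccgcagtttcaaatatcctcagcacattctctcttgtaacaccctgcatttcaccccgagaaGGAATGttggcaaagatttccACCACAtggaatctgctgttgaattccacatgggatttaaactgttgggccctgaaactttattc
Prelp, chr1:133921402-133921651, - strand: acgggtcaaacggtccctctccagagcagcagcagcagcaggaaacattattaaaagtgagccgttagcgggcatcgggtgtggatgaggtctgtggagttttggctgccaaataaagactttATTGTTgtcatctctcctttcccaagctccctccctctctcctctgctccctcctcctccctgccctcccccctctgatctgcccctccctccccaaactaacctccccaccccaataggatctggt
Chad, chr11:94564797-94565046, + strand: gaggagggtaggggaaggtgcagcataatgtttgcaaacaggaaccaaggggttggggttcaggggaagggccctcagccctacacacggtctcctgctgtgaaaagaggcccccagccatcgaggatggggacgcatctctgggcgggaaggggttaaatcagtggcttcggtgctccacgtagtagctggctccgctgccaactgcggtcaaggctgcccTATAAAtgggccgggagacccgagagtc
Kera, chr10:97606955-97607204, + strand: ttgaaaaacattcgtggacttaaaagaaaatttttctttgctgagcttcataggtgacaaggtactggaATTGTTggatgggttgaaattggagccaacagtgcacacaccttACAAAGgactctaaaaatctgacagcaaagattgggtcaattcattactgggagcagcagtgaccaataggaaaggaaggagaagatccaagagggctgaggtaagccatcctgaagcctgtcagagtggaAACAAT

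In the printed Ogn sequence the TEAD letters began 86 bases and the RUNX letters 65 bases before the start, and the WT, deletion and Cho summits lay at 94 to 172 bases. Chad held TATA letters 28 bases before the start. Kera held 3 sets of SOX letters and had no peak. Over the whole window, SOX letters occurred in 5 of the 8 members with a sequence (Prelp, Ogn, Aspn, Epyc and Kera), where 24.1% of the 14477 promoters in the table held them. TATA letters occurred in 3 (Ogn, Aspn and Chad) against 12.9%, RUNX letters in 2 (Ogn and Epyc) against 14.4%, TEAD letters in 1 (Ogn) against 13.3%, and AP-1 letters in 0 against 7.0%. A match of letters is not a bound site.

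All 8 members with a sequence had promoters in the lower 50% by CpG content. The ratio of observed to expected CpG was 0.081 in Kera, 0.155 in Fmod, 0.22 in Epyc, 0.303 in Ogn, 0.317 in Bgn, 0.326 in Prelp, 0.422 in Aspn and 0.473 in Chad. These stood at percentiles 8.1 to 41.2 of all promoters. Peaks were less common at such promoters genome-wide, and the plot of CpG content shows this. In the lower 50% of promoters by this ratio, 28.9% had a peak in Cho Rep1, 38.3% in Cho Rep2, 32.5% in WT and 40.1% for the deletion. The 8 members, all in that set, had a peak in 2, 5, 6 and 6 cases in the same order. In the lowest 25% the shares were 10.2%, 16.2%, 13.1% and 19.2%, and of the 3 members there (Kera, Fmod and Epyc) Fmod had a peak in every library.

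**Figure D2:**
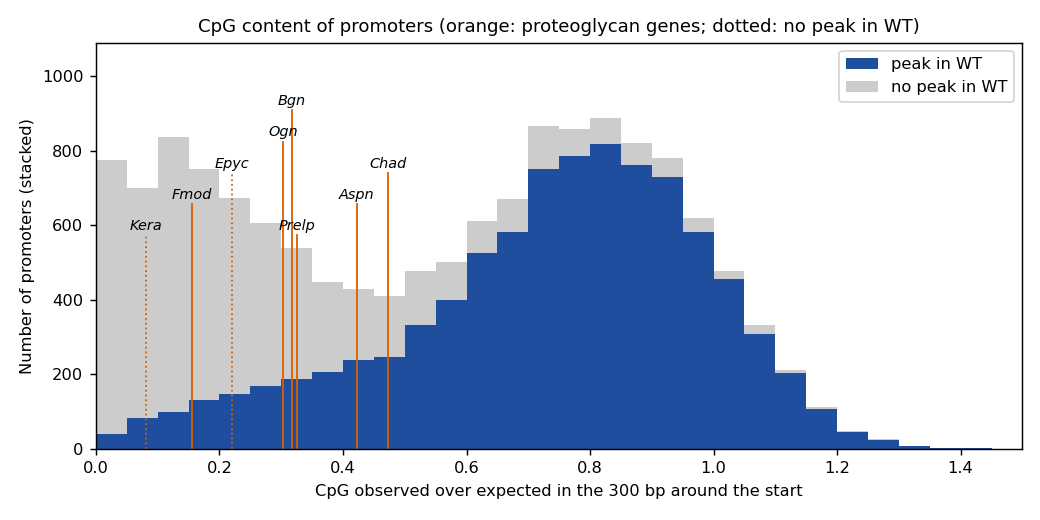
Number of promoters (y axis) by the ratio of observed to expected CpG in the 300 bp around the start (x axis), stacked by whether WT had a peak within 1 kb. Orange lines mark the 8 proteoglycan genes with a sequence, from Kera at 0.081 to Chad at 0.473, dotted where WT had no peak (Kera and Epyc).

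Kera codes for keratocan, a keratan sulfate proteoglycan best known from cornea, and Epyc for epiphycan, a proteoglycan of epiphyseal cartilage. Kera lay in a wide stretch without summits, 85.1 kb long in WT, 59.1 kb in Cho Rep1, 70.7 kb in Cho Rep2 and 32.7 kb in the deletion library. In WT that stretch ran from the promoter peak of Lum to a summit 6.51 kb inside Epyc and so also held the Epyc start. At Epyc, Cho Rep2 and the deletion library each had a weak summit beyond the 1 kb limit, 1940 bp before the start at 4.73 and 1991 bp before it at 4.92. They also had summits at a second annotated start of Epyc, so Epyc counted as open in these 2 libraries when any annotated transcript start was allowed. Within the gene, Cho Rep1 and WT had their first summits at 6496 and 6508 bp, at 4.65 and 8.22.

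The question of the genotype comparison was what the loss of E160 and E308 did to open chromatin. At the 8 promoters called in both libraries, the fold enrichment was higher in the deletion library at 7 genes and lower at Fmod, where 52.4% of all promoters called in both were higher. The median log2 ratio, deletion over WT, was 0.18 for the 8 genes and 0.02 for all 11185 promoters called in both. None passed a 2-fold difference, where 1.08% of all these promoters were past it upward and 0.0805% downward. By the number of summit tags over each library's background, 5 genes were above 1 and 3 below, where 21.4% of all these promoters were above 1 and their median log2 ratio was -0.26 beside 0.04 for the 8 genes.

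The counting intervals were wide at these depths. Ogn had 27 tags at its summit in WT and 48 for the deletion, a scaled ratio of 1.02 with a 95% counting interval of 0.626 to 1.71. Fmod had 18 and 22 tags, a ratio of 0.704 (0.36 to 1.39), and its direction was the same by both measures. Aspn had 7 and 16 tags, a ratio of 1.32 (0.512 to 3.78).

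The other 5 genes had ratios of 0.864 for Bgn, 0.89 for Chad, 1.03 for Prelp, 1.05 for Lum and 1.15 for Dcn. For Bgn and Chad the tag ratio was below 1 while the fold enrichment was higher in the deletion library. Every interval included 1, so no difference was detectable at this depth, as the plot of ratios with intervals shows.

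**Figure D3:**
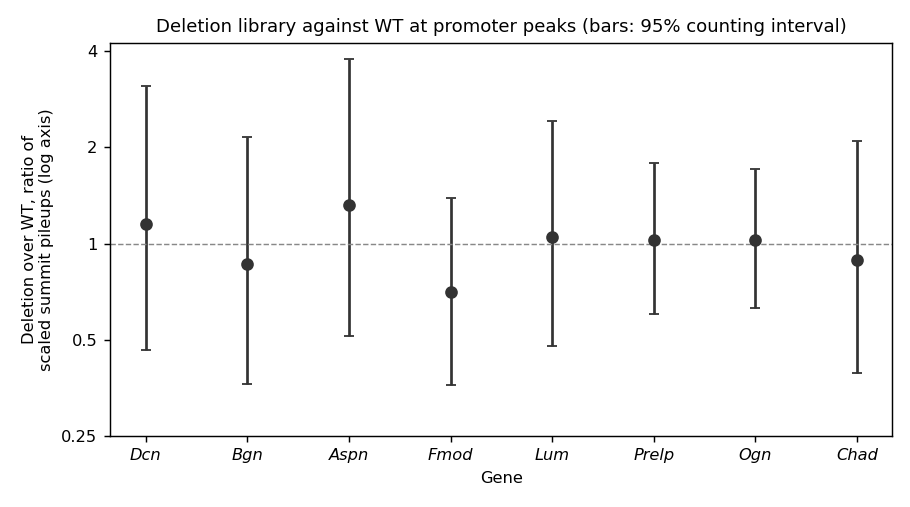
Ratio of summit tags scaled by library background, deletion over WT (log axis), at the promoter peak of each of 8 proteoglycan genes. Bars are 95% counting intervals from 1 library each, the points run from 0.704 at Fmod to 1.32 at Aspn, and every bar crosses 1.

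The 10 genes lay in 6 loci, because Dcn, Lum, Kera and Epyc are neighbours on chromosome 10, and Aspn and Ogn are neighbours on chromosome 13 with Omd, the gene of osteomodulin, between them. Aspn, Omd and Ogn all lie within Cenpp, a centromere gene on the other strand, and Chad lies within Acsf2, so peaks in these introns cannot be given to 1 gene by position. Over the 6 windows, 921.4 kb in all in NCBIM37, there were 46 peaks in Cho Rep1, 139 in Cho Rep2, 96 in WT and 159 for the deletion library. Merged over the 3 NCBIM37 libraries, with Cho Rep2 matched by distance, the peaks made 160 sites. The 34 of 139 Cho Rep2 peaks that matched no site were left out of this count. They included peaks 56.0 and 57.0 kb before Prelp, which only the wider GRCm38 window of that gene reached. Of the sites, 35 had a peak in all 4 libraries, 43 in 3, 37 in 2 and 45 in 1. Of the 160 sites, 10 were at member promoters, 13 at other promoters, 54 in introns, 77 between genes and 6 in exons or UTRs.

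The ratio of deletion to WT peaks was 1.66 over the 6 windows and 1.86 over the whole lists. It ran from 1.10 at Fmod and 1.18 at Prelp to 3.08 at the Dcn–Lum–Kera–Epyc locus, where WT had 13 peaks and the deletion library 40. At that locus the deletion library held 75.5% of the peaks of both libraries (exact 95% interval 61.7% to 86.2%), where it held 65.1% of both whole lists, a value within that interval. The deletion library, deeper by the estimate (8697 tags per Mb against 4622 in WT), had more peaks throughout. With equal numbers of strongest peaks kept from each list, the ratio over the 6 windows turned to 0.885.

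**Figure D4:**
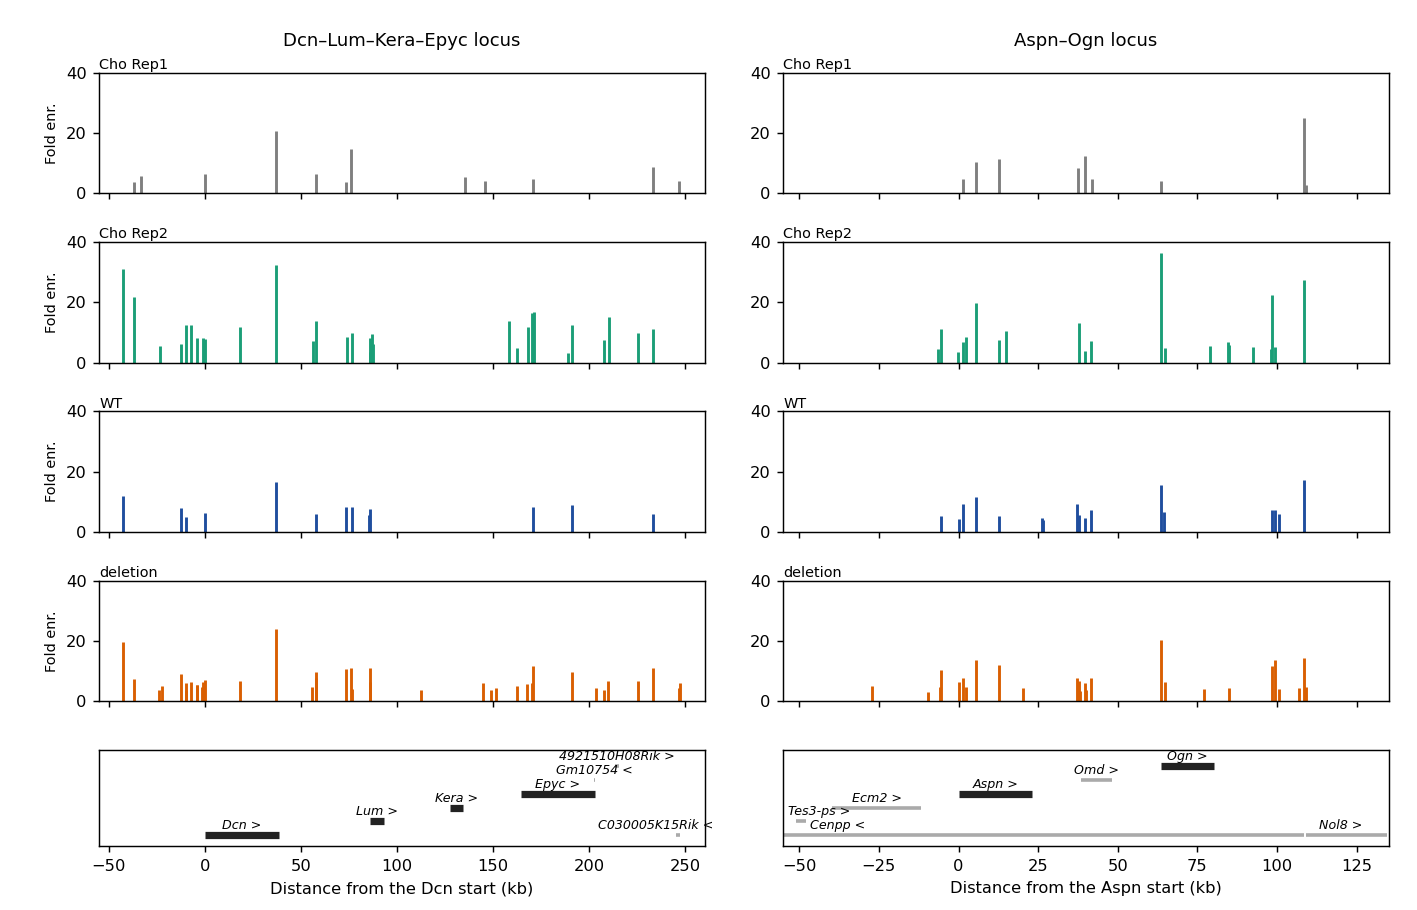
Peaks of 4 libraries across the Dcn–Lum–Kera–Epyc locus (left) and the Aspn–Ogn locus (right), with the distance in kb from the Dcn or Aspn start on the x axis and fold enrichment as stem height on the y axis. Black bars in the lowest row are proteoglycan genes and gray bars other genes. The strong intronic peak of Dcn near 37 kb stands in all 4 libraries, and none of the 4 has a stem within Kera.

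Away from promoters, the strongest WT peak of the chromosome 10 locus lay in an intron of Dcn, 37033 bp after its start at chr10:96979204-96979451 (NCBIM37). Its fold enrichment was 20.7 in Cho Rep1, 32.2 in Cho Rep2, 16.6 in WT and 23.8 for the deletion. All 4 values were higher than those of the Dcn promoter itself. Next came a peak 42735 bp before Dcn, at 31.1 in Cho Rep2, 11.8 in WT and 19.8 for the deletion, with none in Cho Rep1. After it came an intronic peak of Epyc, 26317 bp after its start, at 12.5, 8.82 and 9.84 in the same 3 libraries.

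At the chromosome 13 locus the strongest distal WT peak lay in an intron shared by Aspn and Cenpp, 5388 bp after the Aspn start at chr13:49645062-49645302. Its values were 10.6 in Cho Rep1, 19.7 in Cho Rep2, 11.6 in WT and 13.6 for the deletion. They exceeded the Aspn promoter in the 3 libraries that had a peak there. A nearer intronic peak at 1450 bp had 4.65, 6.90, 9.32 and 7.75 in that order. A peak near Omd, 26412 bp before Ogn, had 8.45 in Cho Rep1, 9.29 in WT and 7.67 for the deletion. Its WT summit lay 1107 bp before the Omd start, while its Cho Rep1 summit, at 970 bp, fell within the promoter limit of Omd.

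Prelp and Fmod, neighbours on chromosome 1, had their strongest distal peaks between genes. The peak 31957 bp before Prelp had 15.2 in Cho Rep1, 23.3 in Cho Rep2, 15.4 in WT and 13.9 for the deletion. Peaks at 38206 and 20709 bp before Prelp had 13.4 and 12.2 in WT and 14.0 and 12.4 in the deletion library. All 3 were higher than the Prelp promoter in both genotypes.

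For Fmod, the peak 23731 bp after the start, past the end of the gene and on the side of Btg2, had 8.45, 22.9, 15.7 and 13.4 in the 4 libraries. It was 2 or more times the Fmod promoter in each. A peak 45726 bp before Fmod had 12.1 in WT and 12.8 for the deletion, and one 55883 bp after the start had 11.5 and 11.4.

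Bgn had its strongest distal WT peak 6819 bp before the start, at chrX:70721956-70722313. Its values were 11.8 in Cho Rep1, 9.16 in Cho Rep2, 12.2 in WT and 12.8 for the deletion, so this site was open in the 2 Cho libraries that had no peak at the Bgn promoter. Peaks in an intron of Haus7, 41955 bp before Bgn, and between genes, 17924 bp before it, had 11.8 and 11.1 in WT and 19.9 and 11.5 in the deletion library.

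For Chad, the strongest distal peak lay in an intron of Rsad1, 20980 bp before the start, at 10.6, 22.7, 13.7 and 17.7 in the 4 libraries. Peaks in introns of Acsf2 lay 20288 bp after and 1116 bp before the Chad start, at 8.22 and 6.15 in WT and 14.0 and 7.89 in the deletion library. All 18 of these distal peaks, chosen as the 3 strongest WT peaks of each locus, overlapped a deletion peak, where 95.9% of all WT peaks did.

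The sequence around the summit is shown for the strongest distal peaks of Dcn, Aspn and Bgn, which had peaks in all 4 libraries and lie in or nearest to the member gene. The strongest distal peak of Prelp met the same terms but is not shown, and it held no SOX, AP-1, RUNX or TEAD letters. The printed sequences were read from NCBIM37 on the + strand, 300 bases centred on the WT summit, and overlapped no annotated exon or UTR. Capitals mark the same SOX, AP-1, RUNX and TEAD letters.
Dcn intron, chr10:96979128-96979427: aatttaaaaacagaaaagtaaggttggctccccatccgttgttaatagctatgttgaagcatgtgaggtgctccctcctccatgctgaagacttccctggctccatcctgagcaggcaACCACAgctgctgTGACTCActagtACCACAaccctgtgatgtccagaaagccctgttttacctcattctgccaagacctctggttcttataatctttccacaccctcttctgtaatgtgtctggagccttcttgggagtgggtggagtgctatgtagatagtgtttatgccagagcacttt
Aspn intron, chr13:49645050-49645349: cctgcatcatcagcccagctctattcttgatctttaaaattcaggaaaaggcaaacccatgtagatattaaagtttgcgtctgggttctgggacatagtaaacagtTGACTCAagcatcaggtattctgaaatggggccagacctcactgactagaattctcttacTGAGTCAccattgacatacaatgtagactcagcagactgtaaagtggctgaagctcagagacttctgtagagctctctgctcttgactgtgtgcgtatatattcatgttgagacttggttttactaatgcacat
upstream of Bgn, chrX:70721972-70722271: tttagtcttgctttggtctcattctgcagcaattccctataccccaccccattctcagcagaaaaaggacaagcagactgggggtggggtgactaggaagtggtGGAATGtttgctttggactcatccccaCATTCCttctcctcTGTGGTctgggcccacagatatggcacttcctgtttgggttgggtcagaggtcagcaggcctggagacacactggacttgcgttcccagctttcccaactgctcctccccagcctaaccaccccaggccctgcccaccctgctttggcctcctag

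The Dcn intron peak held AP-1 letters at base 132 of the 300, between RUNX letters at 119 and 144. The Aspn intron peak held AP-1 letters at 107 and 167. The peak upstream of Bgn held TEAD letters at 105 and 132 and RUNX letters at 146, and none of the 3 held SOX letters. Over the 96 WT peaks of the 6 windows, SOX letters occurred in 21.9% (14.1% to 31.5%) against 26.1% of all 90971 WT peaks. AP-1 letters occurred in 18.8% (11.5% to 28.0%) against 22.2%, RUNX letters in 26.0% (17.6% to 36.0%) against 25.8%, and TEAD letters in 25.0% (16.7% to 34.9%) against 22.6%. For all 4 motifs the share of all WT peaks lay within the exact 95% interval of the windows, which covers counting error only. At the 78 WT peaks outside promoters, SOX letters occurred in 19.2% (11.2% to 29.7%) against 28.7%, also within the interval.

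Most WT peaks of the windows were shared. A deletion peak overlapped 89 of the 96 WT peaks, 92.7% (85.6% to 97.0%), against 95.9% of the whole WT list. A WT peak overlapped 87 of the 159 deletion peaks, 54.7% (46.6% to 62.6%), against 49.4% of the whole deletion list. At the 89 shared peaks the log2 ratio of fold enrichment, deletion over WT, had a median of 0.17 and ran from -0.53 to 1.34, beside a median of 0.28 over all 87274 shared peaks. Of the 89, 5 were past 2-fold higher, where 7.79% of all shared peaks were, and 0 were past 2-fold lower, where 0.071% were.

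**Figure D5:**
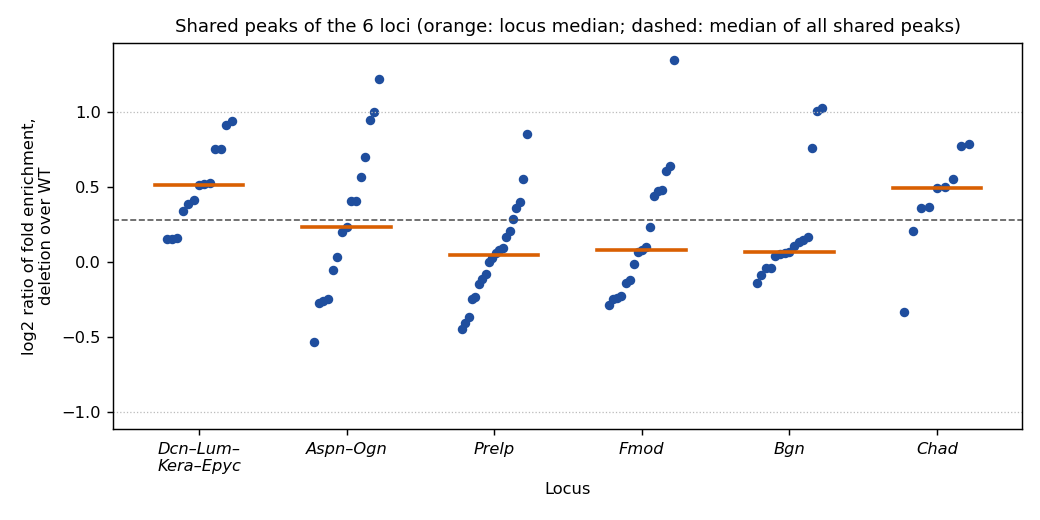
Each point is a peak shared by WT and the deletion library in 1 of the 6 loci (x axis), with the log2 ratio of its fold enrichment, deletion over WT, on the y axis. Orange bars are locus medians, from 0.04 at Prelp to 0.51 at Dcn–Lum–Kera–Epyc, and the dashed line is the median of all shared peaks, 0.28.

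Of all shared peaks, 75.3% were above 0. The medians of the loci were 0.51 at Dcn–Lum–Kera–Epyc with 13 of 13 peaks above 0, 0.49 at Chad with 8 of 9, 0.23 at Aspn–Ogn with 10 of 15, 0.08 at Fmod with 10 of 17, 0.07 at Bgn with 11 of 15, and 0.04 at Prelp with 11 of 20. By scaled tags, 2 of the 13 at the Dcn locus were below 1, and 2 of the 13, at Lum, overlapped the same deletion peak. Peaks of a locus share a library and a stretch of chromosome and are not replicates. By summit tags over library background the median of the 89 peaks was -0.008, beside -0.014 for all shared peaks, so the direction of the whole set was lost with this measure.

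The 5 shared peaks with the highest ratio were 45469 bp before Fmod (5.04 in WT and 12.8 for the deletion), in an exon of Aspn (5.15 and 12.0), in an intron of Bgn (5.53 and 11.2), in an intron of Atp2b3 next to Bgn (7.35 and 14.8) and 5576 bp before Aspn (5.12 and 10.3). Their scaled tag ratios were 1.47 to 2.21, and the lower ends of the intervals were 0.614 to 0.909, all under 1. The Fmod pair joined summits 241 bp apart, since that deletion peak also overlapped a second, stronger WT peak. The 5 lowest lay in an intron of Cenpp near Ogn (5.82 and 4.03), in an intron of Prelp (7.24 and 5.30), between Optc and Prelp (4.66 and 3.51), 40526 bp before Prelp (9.04 and 7.02) and at the Rsad1 promoter (13.3 and 10.6). Their intervals also included 1.

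In WT, 7 window peaks had no overlapping deletion peak, and 1 of them had a peak in a Cho library. The 5 strongest lay 27951 and 20145 bp downstream of the Prelp start, 49970 bp after the Fmod start, and in Cenpp introns 26123 and 26593 bp after the Aspn start, with fold enrichments of 4.07 to 4.95. These were weak peaks of 5 to 9 tags.

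In the deletion library, 72 of 159 window peaks had no overlapping WT peak, where 50.6% of the whole deletion list had none. Of the 72, 10 overlapped a Cho Rep1 peak, 13.9%, where 27.3% of all deletion peaks without a WT peak did. With Cho Rep2 matched by distance, 38 had a peak in a Cho library, a count with no value over the whole list. Their median was 10 tags at the summit. The strongest lay 26561 bp after the Chad start in an intron of Acsf2, at 9.64 in the deletion library and 19.2 in Cho Rep2. It was followed by peaks 27844 bp before Lum (7.59, and 6.33 in Cho Rep1) and 37047 bp before Dcn (7.38, with 3.80 and 21.6 in the Cho replicates). The next 2 lay at 15947 bp after the Prelp start in an intron of Optc (7.20, and 9.64 in Cho Rep2) and 28901 bp before Prelp (7.02, with 4.65 and 3.61). All 5 thus had a peak in at least 1 Cho library. The one before Lum belonged to a merged site that also held a WT peak of 5.82, 28167 bp before Lum. Of the 72, 27 lay at the Dcn–Lum–Kera–Epyc locus, out of 40 deletion peaks there. That locus made up 302.8 of the 921.4 kb. None of its 13 WT peaks lacked a deletion peak, where 95.9% of all WT peaks had one.

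The Cho replicates could be compared only by distance from the gene starts, since their positions were of different builds. Of the 46 window peaks of Cho Rep1, 34 had a Cho Rep2 summit within 150 bp of the same distance, 73.9% (58.9% to 85.7%). Of the WT window peaks, 78.1% (68.5% to 85.9%) had one, and of the deletion window peaks, 66.7% (58.8% to 73.9%). Distances at the same site can be offset between the builds, as at Dcn. A peak without a match is thus not shown to be absent from Cho Rep2. The same shares over the whole lists were not computed.

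Of 8 other genes of the wider family, 4 had a promoter peak in Cho Rep1, where 58.6% of all genes had one. Cho Rep2 had 6 against 66.9%, WT had 5 against 62.0%, and the deletion library had 5 against 67.8%. Podnl1, coding for podocan-like protein, was the strongest of these 8 genes in Cho Rep1, Cho Rep2, WT and the deletion library, at 26.6, 24.1, 19.2 and 16.5. Tsku, coding for the secreted signal modulator tsukushi, had 11.0, 16.0, 11.5 and 10.8. Omd, coding for osteomodulin, which binds collagen in bone, had 8.45, 13.1, 5.77 and 6.64 between Aspn and Ogn. The 8.45 of Cho Rep1 came from the summit 970 bp before the start, given above with the distal peak near Omd. Cho Rep1 had no peak at the site of the other Omd values. Podn, coding for podocan, had 4.22, 7.88, 5.22 and 7.86. Chadl had a peak in all but Cho Rep1, Nyx in Cho Rep2 alone, and Ecm2 and Optc in none.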

How the data were processed

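The authors processed reads with fastp, aligned them with Bowtie2 2.4.4, used Picard and SAMtools 1.9, and called peaks with MACS2 2.2.4 at q below 0.05, per the labels and the study's methods. Each deposited list gives, per peak, a fold enrichment (a ratio) and the −log10 of the p-value and q-value. The other lists than Cho Rep2 use NCBIM37 (mm9) positions. Cho Rep2 fitted GRCm38, with 66.9% of promoters holding a peak against 17.1% with NCBIM37, although mm9 is named for all. No coordinates were converted. In Cho Rep1, 11573 further summits were merged into their interval, and the highest value was kept.

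Genes were matched by symbol between GENCODE and RefSeq. Summit tags and background were solved from fold enrichment and p under the Poisson model of MACS2, for 98.3% to 100.0% of peaks, and checked on simulated data. Overlap used bedtools 2.31.1 (at least 1 bp). Intervals are exact (Clopper-Pearson, 95%) and cover counting error only. The tools were scipy 1.17.1, pandas 2.3.3 and numpy 2.4.6 under Python 3.11.15. Named peaks were the members' promoter peaks, the 3 strongest distal WT peaks per locus, the 5 strongest peaks of 1 genotype alone, and the 5 shared peaks with the highest and the lowest ratio. Members and lists were chosen with earlier results of these data known. Snorc, listed as a chondrocyte marker, was not found in the annotations.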

Additional observations from a re-analysis of the deposited data

How the results depend on the processing

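With equal numbers of strongest peaks, the ratio of deletion to WT window peaks fell below 1, to 0.885, the share of WT peaks with a deletion peak was 76.0% (82.7% in the whole lists) and the share of deletion peaks with a WT peak was 82.4% (78.6%). The latter was 45.9% (38.9%) when overlap had to reach 50%. The median log2 ratio at shared window peaks was 0.81 by −log10 q (0.76 over all shared peaks) and -0.008 by summit tags over library background (-0.014). At a q-value below 1e-05, Cho Rep1 kept 1 member promoter, Dcn, and 52.6% of all genes had a peak. At that limit WT kept 6 member promoters, without Bgn and Aspn, against 59.0% of all genes. The deletion library kept all 8, against 64.6%. With equal numbers of strongest peaks, WT had 7, without Aspn, against 60.3%. The deletion library then also had 7, without Bgn, against 60.0%, so the 2 sets of genes were not the same. In 200 bp around the summit, SOX letters occurred in 13.5% and TEAD letters in 14.6% of WT window peaks, against 16.5% and 17.5% of all WT peaks. For the lower 50% by CpG ratio instead of the lowest 25%, 28.9%, 38.3%, 32.5% and 40.1% of such promoters had a peak in Cho Rep1, Cho Rep2, WT and the deletion library. Some alternatives were chosen after seeing the data. Of these, a match within 500 bp gave 87.0% of Cho Rep1 window peaks a Cho Rep2 summit, a summit within 300 bp left 2 other family genes in Cho Rep1, and leaving out the Dcn–Lum–Kera–Epyc locus gave a ratio of 1.43. Without either Cho replicate, the Cho value was 6.33 to 8.31 at Dcn, 3.75 to 3.80 at Fmod and 4.22 to 36.5 at Ogn, so 1 library decides the Ogn mean. The median log2 ratio at member promoters was 0.04 by summit tags. In all, 40 recomputed values kept their direction, those of the Cho replicates, this median and the ratio of 1.43 included. They moved by no more than 1.5 times for counts, 1 SD for Cho means and the 95% interval for shares and medians. With n = 2, leaving out either replicate moves a mean by less than 1 SD whatever the values. The Cho means could therefore not fail this limit, which says nothing about how stable they are. No paired analysis was possible because each genotype had a single library. Wide counting intervals at 7 to 48 summit tags limit the promoter comparison, and signal outside called peaks was not analysed here.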
